A study of Homo sapiens with 18 samples.

Results

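The genes described here are 9 interferon-stimulated genes and sensors, IFIT1, IFIT2, IFIT3, ISG15, MX1, OAS1, IFIH1, IRF1 and IRF7. They were chosen by symbol, with earlier results of these data known. Each symbol matched the RefSeq identifier of 1 target of an amplicon sequencing panel, giving 9 of the 20802 targets counted. The question was whether cells depleted of ESCRT-I, an endosomal sorting complex, showed an interferon response beside their NFκB response, and whether any siRNA raised these genes alone. RKO cells, an established human colorectal carcinoma line, were transfected with 30 nM siRNA and their RNA was taken after 72 h. Cells received siTsg101#1 or siTsg101#2 against the ESCRT-I subunit TSG101, siVps28#1 or siVps28#2 against the subunit VPS28, or the nontargeting siRNAs siCtrl#1 or siCtrl#2. Each of the 6 siRNAs had 3 libraries, replicates 1 to 3, which were 3 batches holding 1 library of every siRNA each. All cells were transfected and none were given interferon, so neither a level without transfection nor a level after interferon was measured.

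The 18 libraries held 2561790 to 7466916 reads on targets, and levels are given as CPM, the normalised count of a target scaled to equal library sizes. TSG101 stood at 113 ± 38.5 CPM (SD, n = 3) with siCtrl#1 and at 3.74 ± 0.731 and 3.29 ± 1.30 CPM with siTsg101#1 and siTsg101#2. VPS28 stood at 99.1 ± 12.8 CPM with siCtrl#1 and at 5.45 ± 2.06 and 5.86 ± 1.13 CPM with siVps28#1 and siVps28#2. Each gene was therefore low in the libraries labelled with its own siRNAs. Of the colorectal and epithelial markers, KRT8, KRT18, EPCAM and CDX2 passed the minimum for testing, whereas CDH1 had 0 counts and VIL1 had 6 counts in all libraries together. Of the immune cell markers, PTPRC, CD3E and LYZ had 0 counts in every library and ITGAM had 16 counts in all. CD68, a lysosomal protein abundant in macrophages, was by contrast high, at 597 ± 99.2 CPM (SD, n = 3) with siCtrl#1, and was called up with 3 of the 4 on-target siRNAs (log2 fold changes 0.84 to 1.22, and 0.29 with siVps28#1). CD68 was also at 0.60 with siCtrl#2 against siCtrl#1, which was not called. Its part in the results on the members was not tested.

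Interferons are secreted proteins that signal through cell surface receptors, JAK kinases and STAT factors to switch on antiviral genes. Cells make them after cytosolic or endosomal sensors detect foreign or misplaced nucleic acid, and transfected siRNA can be such a ligand. Type I interferon acts mainly through a DNA element called ISRE, whereas interferon-gamma acts mainly through the GAS element. IFIT1, IFIT2, IFIT3, ISG15, MX1 and OAS1 are effectors of this response, IFIH1 is a sensor of double-stranded RNA, and IRF1 and IRF7 are transcription factors that amplify it. IRF1 is also a well known NFκB target.

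The promoters of the members carried these elements to different extents, and the stretch around 1 match of each kind described is shown because ISG15, MX1, IFIH1 and IRF1 carry most of the values given later. The 250 bases before each annotated start (RefSeq, GRCh38.p14) were searched on both strands for GAAA, any 2 bases and GAAA as an ISRE core, for TTCNNNGAA as GAS and for the κB consensus. Matches are in capitals, sequences run 5′ to 3′ on the strand of the gene, and a match is a description of letters and not a site of binding.
ISG15, ISRE, chr1:1013359-1013418, plus strand: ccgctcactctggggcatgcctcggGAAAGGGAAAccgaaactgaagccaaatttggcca
IFIT1, ISRE, chr10:89392482-89392541, plus strand: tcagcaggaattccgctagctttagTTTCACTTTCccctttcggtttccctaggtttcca
IFIT3, ISRE, chr10:89327850-89327909, plus strand: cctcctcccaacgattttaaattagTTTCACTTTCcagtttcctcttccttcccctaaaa
MX1, ISRE, chr21:41431829-41431888, plus strand: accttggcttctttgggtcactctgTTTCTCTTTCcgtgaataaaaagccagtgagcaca
IFIH1, ISRE, chr2:162318803-162318862, minus strand: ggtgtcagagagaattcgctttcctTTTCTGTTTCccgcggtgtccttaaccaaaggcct
OAS1, GAS, chr12:112906769-112906827, plus strand: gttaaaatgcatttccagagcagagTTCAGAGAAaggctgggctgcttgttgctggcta
IRF1, GAS, chr5:132490864-132490922, minus strand: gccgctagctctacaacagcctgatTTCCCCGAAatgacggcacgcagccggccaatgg
IRF1, κB, chr5:132490789-132490848, minus strand: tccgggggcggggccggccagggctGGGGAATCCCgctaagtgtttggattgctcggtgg

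ISRE matches were present in 6 of the 10 promoter entries of the members, which counted IFIT3 with 2 starts and MX1 with 3 starts. Of all 35116 promoters 3.02% held an ISRE match, 6.57% a GAS match and 5.21% a κB match. ISG15 had 2 overlapping ISRE matches, IFIH1 had 3 of which the first and second overlapped, and the ISRE match of MX1 overlapped a GAS match and lay before only 1 of its 3 starts. IRF1 had no ISRE match but had 1 GAS and 1 κB match. IFIH1 also had 1 κB match, so 2 of the 10 entries held one. IFIT2 and IRF7 had no promoter entry in the table used. For comparison, the promoters of a list of NFκB target genes held an ISRE match in 0 of 33 entries and a κB match in 14 of 33.

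The called changes of the members were in no single direction. Of the 9 members, 6 passed the minimum of over 100 counts summed over the 18 libraries and were tested together with 10213 protein-coding targets, and IFIT1, IFIT3 and OAS1 did not pass it. A target was called changed at a fold change of at least 1.5 with an adjusted p-value under 0.05 (edgeR quasi-likelihood test, Benjamini-Hochberg). Against siCtrl#1, IRF1 was called up with siTsg101#1, and ISG15 was called down with siTsg101#2 and with siVps28#1. With siVps28#2 no member was called. None of the 6 was called up with all 4 on-target siRNAs, which 2.58% of all tested targets were, so a count of 0 among 6 genes is not a result about the members. The 4 comparisons share the siCtrl#1 libraries, so their values are given side by side and their agreement is not a result.

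**Figure D1:**
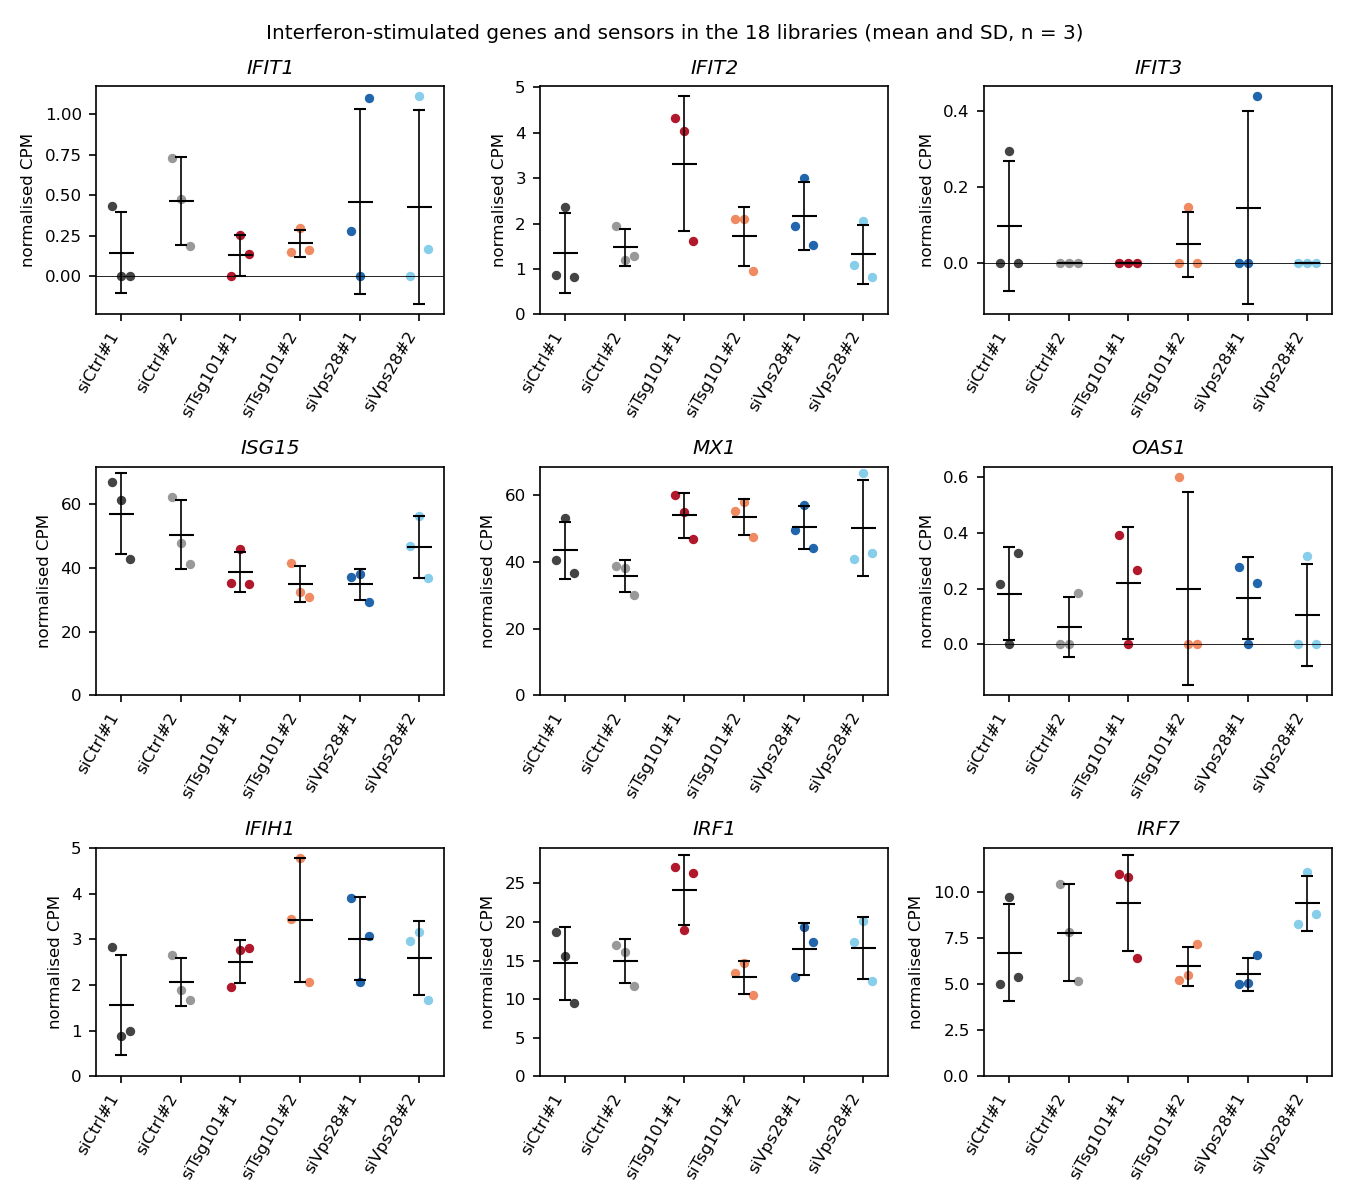
Normalised CPM (y axis, a separate scale per gene) of the 9 members in each library of the 6 siRNA groups, with points for replicates 1 to 3 from left to right, and bars for the mean and SD (n = 3). IFIT1, IFIT3 and OAS1 were at 0 to 7 counts per library, ISG15 was lower with siTsg101#2 and siVps28#1 than in every siCtrl#1 library, and IRF1 was higher with siTsg101#1 than in every siCtrl#1 library.

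The effectors IFIT1, IFIT3 and OAS1 were at or near 0 in every group. IFIT1, which binds RNA lacking normal cap methylation, had 28 counts in all 18 libraries together, of which 2 and 6 were from siCtrl#1 and siCtrl#2, 2 and 4 from siTsg101#1 and siTsg101#2, and 6 and 8 from siVps28#1 and siVps28#2. Its highest count in a library was 7, in replicate 2 of siVps28#2, and 5 libraries were at 0. IFIT3, which forms complexes with IFIT1 and IFIT2, had 4 counts in all libraries together and was at 0 in 15 of them. The 3 libraries each of siCtrl#2, siTsg101#1 and siVps28#2 had no count of IFIT3, which allows levels of up to 0.218, 0.215 and 0.160 CPM per group by counting error alone (3 counts over the group's reads). OAS1, an enzyme that makes the activator of RNase L when it meets double-stranded RNA, had 15 counts in all and at most 4 in a library, replicate 1 of siTsg101#2. In the fit with no minimum, none of the 3 was called in any of 11 comparisons, with the lowest edgeR adjusted p at 0.387, and none had an unadjusted p under 0.05. Differences among levels of a few counts were not detectable at this depth. Amplicon positions were not given in the sources used here, so how well each target would report an induced transcript was not tested.

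ISG15 was the member with the clearest fall. ISG15 is a ubiquitin-like protein that is attached to other proteins after interferon, and its gene lies at chr1:936518-949920 on the plus strand (GRCh37). In replicates 1 to 3 it stood at 67.0, 61.4 and 42.8 CPM with siCtrl#1 and at 62.3, 48.0 and 41.2 CPM with siCtrl#2. It stood at 35.3, 46.1 and 35.1 CPM with siTsg101#1, at 41.6, 32.4 and 30.9 CPM with siTsg101#2, at 37.1, 38.2 and 29.2 CPM with siVps28#1, and at 46.9, 56.3 and 36.8 CPM with siVps28#2. All libraries of siTsg101#2 and siVps28#1 lay below all of siCtrl#1, whereas siTsg101#1 and siVps28#2 overlapped it. From the highest group mean to the lowest, the order was siCtrl#1, siCtrl#2, siVps28#2, siTsg101#1, siTsg101#2 and siVps28#1, and the libraries of neighbours in this order overlapped throughout.

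The log2 fold change of ISG15 against siCtrl#1 was -0.70 ± 0.21 (SE) with siTsg101#2 (edgeR adjusted p = 0.0186) and -0.71 ± 0.21 with siVps28#1 (adjusted p = 0.0343). Of all tested targets, 6.66% were called down with siTsg101#2 and 3.75% with siVps28#1. In these bulk libraries, fewer cells with a transcript and less of it per cell cannot be told apart. With siTsg101#1 ISG15 was at -0.55 ± 0.21 (edgeR adjusted p = 0.0551), and with siVps28#2 at -0.28 ± 0.20 (adjusted p = 0.394). Within batches, ISG15 was below siCtrl#1 with every on-target siRNA in all 3 batches, by -0.12 to -0.92 on the log2 scale. The mean of the 4 on-target siRNAs was -0.56 ± 0.16 (edgeR adjusted p = 0.0122), which is under the 1.5-fold minimum. With siCtrl#2 as the reference both calls were lost, at -0.53 with an edgeR adjusted p of 0.0827 for siTsg101#2 and at -0.53 with 0.174 for siVps28#1. The call with siTsg101#2 was also lost without replicate 1 or 2 of siCtrl#1 or replicate 2 or 3 of siTsg101#2 (-0.57 to -0.65), and that with siVps28#1 without replicate 1 or 2 of siCtrl#1 or any 1 of its own replicates (-0.57 to -0.78). In the other direction, ISG15 became called down with siTsg101#1 in 2 of 26 alternatives. For the mean of the 4 on-target siRNAs it became called down in 5 of 26.

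MX1, a GTPase that blocks viruses in the cytoplasm, was not called in any comparison against siCtrl#1. Its gene lies at chr21:42791947-42841998 on the plus strand (GRCh37). It stood at 40.7, 53.1 and 36.8 CPM with siCtrl#1 and at 38.8, 38.0 and 30.1 CPM with siCtrl#2. It stood at 60.1, 54.9 and 46.8 CPM with siTsg101#1, at 55.1, 58.0 and 47.4 CPM with siTsg101#2, at 49.6, 57.1 and 44.2 CPM with siVps28#1, and at 41.0, 66.6 and 42.6 CPM with siVps28#2. Replicate 2 of siCtrl#1 lay among the on-target libraries, whereas all 3 siCtrl#2 libraries lay below all 12 on-target libraries.

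Against siCtrl#1 the log2 fold changes of MX1 were 0.31 ± 0.20 (SE), 0.31 ± 0.19, 0.22 ± 0.20 and 0.21 ± 0.19 with siTsg101#1, siTsg101#2, siVps28#1 and siVps28#2, with edgeR adjusted p-values of 0.267, 0.276, 0.567 and 0.523. The widest of their 95% intervals reached 0.72, so a rise of up to that size lies within them. With each library left out in turn, MX1 with siVps28#2 was at -0.05 to 0.37, and its values with the other on-target siRNAs stayed above 0.10. MX1 was also at -0.28 ± 0.20 with siCtrl#2 (edgeR adjusted p = 0.558), and with siCtrl#2 as the reference it was called up with siTsg101#1 (0.59, adjusted p = 0.0393) and siTsg101#2 (0.59, adjusted p = 0.0404). For MX1 the choice of nontargeting siRNA thus decided the call. Its exons overlap 998 bases of exons on the opposite strand, TMPRSS2 among them, and whether counting used strand was not given in the sources used here.

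IFIT2 and IFIH1 were detected in every library but at few counts. IFIT2, an effector that restricts translation and promotes apoptosis, had 4, 8 and 5 counts with siCtrl#1 and 8, 5 and 7 with siCtrl#2. Its counts were 11, 16 and 12 for siTsg101#1 and 14, 14 and 6 for siTsg101#2, then 7, 13 and 7 for siVps28#1 and 7, 13 and 5 for siVps28#2. Normalised for depth, only siTsg101#1 had a mean over 3 CPM, at 3.32 ± 1.49 CPM (SD, n = 3), against 1.35 ± 0.875 CPM with siCtrl#1, and the lowest siTsg101#1 library overlapped the highest siCtrl#1 library. The log2 fold change of IFIT2 with siTsg101#1 was 1.27 ± 0.52 (SE, edgeR adjusted p = 0.0755), and with the batch as a term in the fit it was 1.26 ± 0.41 (adjusted p = 0.0243), which is a call. In its own batch each siTsg101#1 library was above siCtrl#1, by 2.31, 0.77 and 0.97 on the log2 scale. Against the mean of the other 3 on-target siRNAs it was 0.81 ± 0.38 (adjusted p = 0.188, edgeR), so a rise with siTsg101#1 alone was not shown. With the other 3 siRNAs the log2 fold changes of IFIT2 were 0.11 to 0.79, with the lowest edgeR adjusted p at 0.422. The call was also made without replicate 2 of siCtrl#1 (1.81, adjusted p = 0.0316) or replicate 3 of siTsg101#1 (1.73, adjusted p = 0.0251). Exons of IFIT2 overlap exons of other genes over 524 bases on the same strand and 65 bases on the opposite strand. In stretches of 50 bases, 11.5% of its longest transcript is shared with 8 other genes. Whether reads of other genes add to the counts of IFIT2 was not tested.

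IFIH1, which encodes the RNA sensor MDA5, had 13, 3 and 6 counts with siCtrl#1 and 11, 8 and 9 with siCtrl#2. Its counts were 5, 11 and 21 for siTsg101#1 and 23, 32 and 13 for siTsg101#2, then 14, 9 and 14 for siVps28#1 and 19, 20 and 10 for siVps28#2. As levels, replicate 1 of siCtrl#1 stood at 2.83 CPM, among the on-target libraries, and the other two siCtrl#1 libraries at 0.885 and 0.984 CPM. The log2 fold changes were 0.72 ± 0.47, 1.12 ± 0.43, 0.92 ± 0.47 and 0.72 ± 0.45 (SE) with siTsg101#1, siTsg101#2, siVps28#1 and siVps28#2, of which siTsg101#2 had the lowest edgeR adjusted p at 0.0679. With the batch as a term in the fit IFIH1 was called up with siTsg101#2 (1.10 ± 0.40, edgeR adjusted p = 0.0480). The mean of the 4 on-target siRNAs was 0.87 ± 0.38 (edgeR adjusted p = 0.0985). Without replicate 1 of siCtrl#1 this mean was 1.58 (adjusted p = 0.0237, edgeR) and IFIH1 was called up with siTsg101#2 (1.83, adjusted p = 0.0175), as it was without replicate 3 of siTsg101#2 (1.38, adjusted p = 0.0370), and with siCtrl#2 as the reference the mean was 0.49 (adjusted p = 0.387). Leaving out that 1 control library thus raised the value of IFIH1 with each on-target siRNA, to 1.44 to 1.83.

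**Figure D2:**
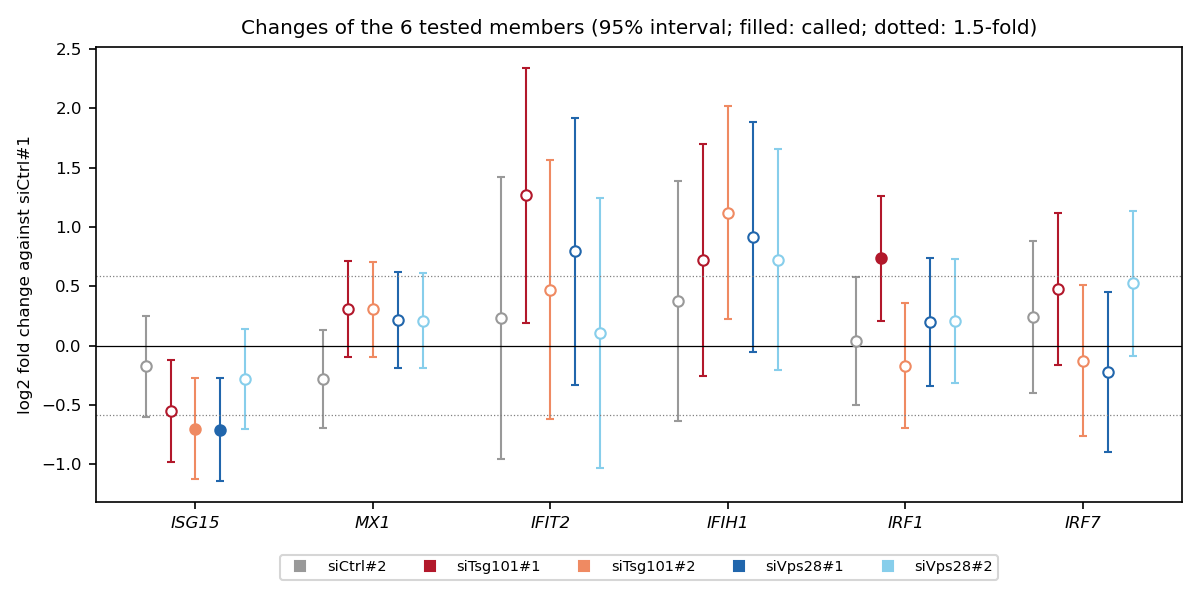
Log2 fold change against siCtrl#1 (y axis) of the 6 tested members (x axis) with siCtrl#2 and the 4 on-target siRNAs (colours), where points are edgeR estimates, bars their 95% intervals, filled points called changes and dotted lines the 1.5-fold limits. The filled points are ISG15 with siTsg101#2 (-0.70) and siVps28#1 (-0.71) and IRF1 with siTsg101#1 (0.74), and IFIT2 and IFIH1 have the widest intervals.

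Against siCtrl#1, and without the batch in the fit, IRF1 was the sole member called up, with siTsg101#1. IRF1 is a transcription factor for interferon-gamma responses and antigen presentation, and its gene lies at chr5:131776132-131844411 on the minus strand (GRCh37). It stood at 18.7, 15.6 and 9.52 CPM with siCtrl#1 and at 17.0, 16.2 and 11.7 CPM with siCtrl#2. It stood at 27.1, 18.9 and 26.3 CPM with siTsg101#1, at 13.3, 14.6 and 10.5 CPM with siTsg101#2, at 12.8, 19.4 and 17.4 CPM with siVps28#1, and at 17.5, 20.1 and 12.3 CPM with siVps28#2. The 3 siTsg101#1 libraries lay above all 6 nontargeting libraries, although replicate 2 did so narrowly and lay within the range of both siVps28 groups.

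The log2 fold change of IRF1 with siTsg101#1 was 0.74 ± 0.25 (SE, edgeR adjusted p = 0.0350), a level 1.67-fold that with siCtrl#1, where 11.8% of all tested targets were called up. With siTsg101#2, siVps28#1 and siVps28#2 it was -0.17 ± 0.26, 0.20 ± 0.26 and 0.21 ± 0.25, with edgeR adjusted p-values of 0.694, 0.710 and 0.647. Against the mean of the other 3 on-target siRNAs, siTsg101#1 was at 0.66 ± 0.20 (edgeR adjusted p = 0.0323), where 7.48% of targets were called, 3.42% up. In its own batch IRF1 was above siCtrl#1 by 0.54, 0.27 and 1.46 on the log2 scale. With siCtrl#2 as the reference the change of 0.70 was no longer called (edgeR adjusted p = 0.0574), and neither was it without replicate 1 (0.66, adjusted p = 0.101) or replicate 3 (0.65, adjusted p = 0.128) of siTsg101#1 or without replicate 2 (0.78, adjusted p = 0.0583) or replicate 3 (0.48, adjusted p = 0.208) of siCtrl#1. Exons of IRF1 overlap 2805 bases of exons on the opposite strand, IRF1-AS1 among them, and reads of both cannot be told apart where counting ignored strand.

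IRF7, the factor that amplifies type I interferon production, was not called in any comparison. It stood at 5.00, 9.73 and 5.41 CPM with siCtrl#1 and at 10.4, 7.84 and 5.18 CPM with siCtrl#2. It stood at 11.0, 10.8 and 6.43 CPM with siTsg101#1, at 5.24, 5.53 and 7.18 CPM with siTsg101#2, at 5.01, 5.07 and 6.59 CPM with siVps28#1, and at 8.26, 11.1 and 8.83 CPM with siVps28#2. All groups overlapped siCtrl#1, and the siVps28#2 libraries lay above both siTsg101#2 and siVps28#1. The log2 fold changes against siCtrl#1 were 0.48 ± 0.31, -0.13 ± 0.31, -0.22 ± 0.33 and 0.53 ± 0.30 (SE) with siTsg101#1, siTsg101#2, siVps28#1 and siVps28#2, and the lowest edgeR adjusted p was 0.260. The difference of siVps28#2 from the mean of the other 3 on-target siRNAs was 0.48 ± 0.23 (edgeR adjusted p = 0.277).

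The counts of called members are given beside the shares of all targets called. With siTsg101#1, 1 of the 6 tested members was called, against 21.8% of all targets in either direction. The count was 1 of 6 against 17% with siTsg101#2, 1 of 6 against 8.66% with siVps28#1, and 0 of 6 against 13.3% with siVps28#2. With 6 genes such shares are coarse, and nothing is read from them beyond the named calls. The median log2 fold changes of these 6 genes were 0.60, 0.09, 0.21 and 0.21 with siTsg101#1, siTsg101#2, siVps28#1 and siVps28#2, with 5, 3, 4 and 5 of them above 0, whereas the median of all targets was -0.01 to 0.02. For the mean of the 4 on-target siRNAs 0 of 6 was called, against 15.1% of all targets. Among the 4 siRNAs, a call in the same direction with all of them was made for 2.58% of targets upward and 1.54% downward, and for 0 members.

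The nontargeting siRNAs were compared with each other to give the background of the members. With siCtrl#2 against siCtrl#1 no member was called by edgeR, where 2.09% of all targets were, none had an unadjusted p under 0.05 (lowest 0.170, MX1), and the log2 differences were -0.28 to 0.38. The 95% intervals of the low members reached 1.42 for IFIT2 and 1.39 for IFIH1, so differences of that size between the control siRNAs lie within them. The subunits were compared as both siTsg101 against both siVps28. No member was called by edgeR or had an unadjusted p under 0.05 (lowest 0.232, IFIT2), against 6.23% of all targets called, and the log2 differences were -0.13 to 0.42. Against the mean of the other 3 on-target siRNAs, no member was called with siTsg101#2, siVps28#1 or siVps28#2, where 6%, 2.3% and 2.68% of targets were. The lowest edgeR adjusted p among them was 0.106, for IRF1 with siTsg101#2 (-0.55 ± 0.21, SE). ISG15 and IRF7 with siVps28#2, at 0.37 and 0.48, were the other differences with an unadjusted p under 0.05 in edgeR.

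The other genes of the pathway were taken from 4 lists, of interferon-stimulated genes outside the members, nucleic acid sensors and adaptors, interferons with their receptors, JAK-STAT factors and IRFs, and targets of interferon-gamma and IRF1. Together they named 108 genes, of which 105 had a target and 64 were tested. The interferons in these lists were near 0, since 9 listed interferon genes had a target, 3 of them had no counts, and the highest count of any of them in a library was 4. Interferon genes outside the lists were not looked up. IFNB1, the first interferon made after sensing, had 3 counts in all libraries together. Among the interferon-stimulated genes, IFI44L, IFITM1, XAF1 and EPSTI1 had 0 counts in every library, and CXCL9 and CXCL11, chemokines typical of interferon-gamma, had 0 as well.

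None of the 64 genes was called up with all 4 on-target siRNAs, beside 2.58% of all targets, and with a background so low 0 of 64 is not a result about these lists. With siTsg101#1, 12 of the 64 genes were called up and 5 down, a median log2 fold change of 0.17 over the list against -0.01 over all targets. With siTsg101#2, 6 were called up and 2 down (median -0.06), with siVps28#1, 2 up and 1 down (0.06), and with siVps28#2, 3 up and 2 down (0.08). The share called up was 18.8% with siTsg101#1 beside 11.8% of all targets, and 9.38%, 3.12% and 4.69% beside 10.4%, 4.91% and 7.09% with the other 3 siRNAs. Of all targets, 10.1%, 6.66%, 3.75% and 6.23% were called down. The 4 lists differed with siTsg101#1. Of 26 tested interferon-stimulated genes outside the members, 2 were called up (7.69%, under the share of all targets) and 3 down. Of 12 sensors and adaptors, 2 were called up (16.7%) and 1 down. In the list of interferons, receptors, JAK-STAT factors and IRFs it was 5 of 17 up (29.4%). Of 9 targets of interferon-gamma and IRF1, 3 were called up (33.3%) and 1 down. Over the alternatives run, 0 to 1 of the 64 genes was called up with all 4 siRNAs.

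**Figure D3:**
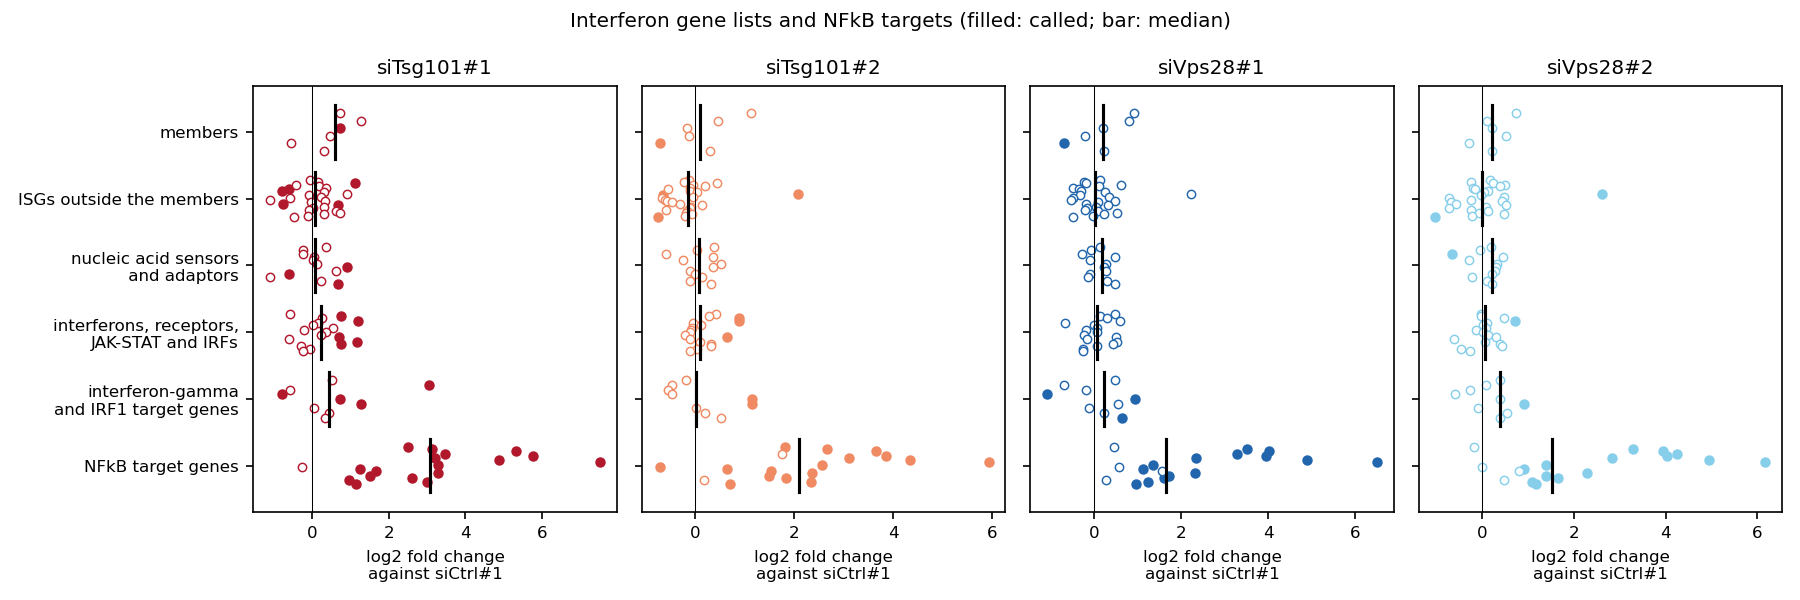
Log2 fold changes against siCtrl#1 (x axis, 1 panel per on-target siRNA, scales differ) of the tested members, the genes of the 4 interferon lists and the NFκB target genes (rows), with filled points for called genes, open points for the rest and bars for list medians. The medians of the 4 interferon lists lie between -0.14 and 0.44, those of the members between 0.09 and 0.60, and those of the NFκB targets between 1.52 and 3.07.

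The NFκB list moved in the same libraries. Of its 18 tested genes, 13 were called up with all 4 on-target siRNAs, beside 2.58% of all targets. The medians of the 18 were 3.07, 2.09, 1.66 and 1.52 with siTsg101#1, siTsg101#2, siVps28#1 and siVps28#2. The other 7 of the 25 listed genes were under the minimum and not tested. CXCL8, a chemokine that attracts neutrophils, rose from 2 to 6 counts in the siCtrl#1 libraries to 246 to 1231 counts in the on-target libraries. It thus passed the minimum only through the on-target libraries. Where a gene passed the minimum in this way it had to differ, so the count and the medians are partly set by the minimum. NFKBIA, the feedback inhibitor of NFκB, rose from 26.1, 64.3 and 40.0 CPM with siCtrl#1 to 550, 281 and 427 CPM with siTsg101#1 and to 185 to 270 CPM with the other 3 siRNAs. Against the mean of the other 3 on-target siRNAs, 9 of the 18 were called up with siTsg101#1 (median 0.56), as was IRF1, beside 3.42% of all targets. The lists were chosen with earlier results of these libraries known, so the contrast between them is a description.

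Of 64 tested pathway genes, 6 were called with siTsg101#1 and with no other on-target siRNA, and also against the mean of the other 3. In the last comparison alone, 3.42% of all targets were called up and 4.06% down. The share of all targets that meet both conditions was not computed, so nothing is read from the count. GBP2, a guanylate-binding GTPase induced by interferon-gamma, had the largest change of the 6. It had 7, 2 and 6 counts with siCtrl#1, 5, 10 and 9 with siCtrl#2 and 32, 37 and 46 with siTsg101#1, and 2 to 13 counts in the libraries of the other 3 siRNAs. The siTsg101#1 libraries, at 6.16 to 12.6 CPM, thus lay above all others, the highest of which stood at 2.38 CPM. GBP2 passed the minimum for testing only through siTsg101#1, since it had 115 counts there and 83 in the other 15 libraries together, so among tested genes it had to differ. The log2 fold change of GBP2 was 3.05 ± 0.44 (SE, edgeR adjusted p = 2.16e-05) against siCtrl#1 and 3.41 ± 0.33 (adjusted p = 2.53e-07) against the other 3 on-target siRNAs, and both calls held in all alternatives that tested GBP2.

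The other 5 of these genes changed less. CMPK2, a mitochondrial kinase induced by type I interferon, rose by 1.11 ± 0.37 (log2, SE, edgeR adjusted p = 0.0311) with siTsg101#1. SOCS3, the feedback inhibitor of JAK kinases, rose by 1.18 ± 0.37 (adjusted p = 0.0221, edgeR), and IFNAR2, a chain of the type I interferon receptor, by 0.75 ± 0.22 (adjusted p = 0.0127). HERC6 fell by 0.78 (adjusted p = 0.0301, edgeR) and TBK1, a kinase that activates IRF3 downstream of sensors, fell by 0.61 (adjusted p = 0.0354). Leaving out some single libraries ended each of these 5 calls. The call of CMPK2 also ended with DESeq2 (adjusted p = 0.0544) and with no minimum count (adjusted p = 0.0505, edgeR), and that of SOCS3 with DESeq2 (adjusted p = 0.0522). With siCtrl#2 as the reference the edgeR calls of TBK1 (adjusted p = 0.0535), IFNAR2 (adjusted p = 0.0585) and SOCS3 (adjusted p = 0.164) ended. SOCS3 stood at 1.96 CPM in replicate 1 of siTsg101#1, within the siCtrl#1 range of 1.48 to 2.39 CPM, and without replicate 3 its change was 0.76 (adjusted p = 0.242, edgeR). Against the mean of the other 3 on-target siRNAs, HERC6 was at -0.69, a call lost in 13 of 24 alternatives. In that comparison CMPK2 was at 0.95 (lost in 7 of 23) and SOCS3 at 0.95 (3 of 23). IFNAR2 was at 0.62 there (lost in 3 of 24) and TBK1 at -0.65 (4 of 24).

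**Figure D4:**
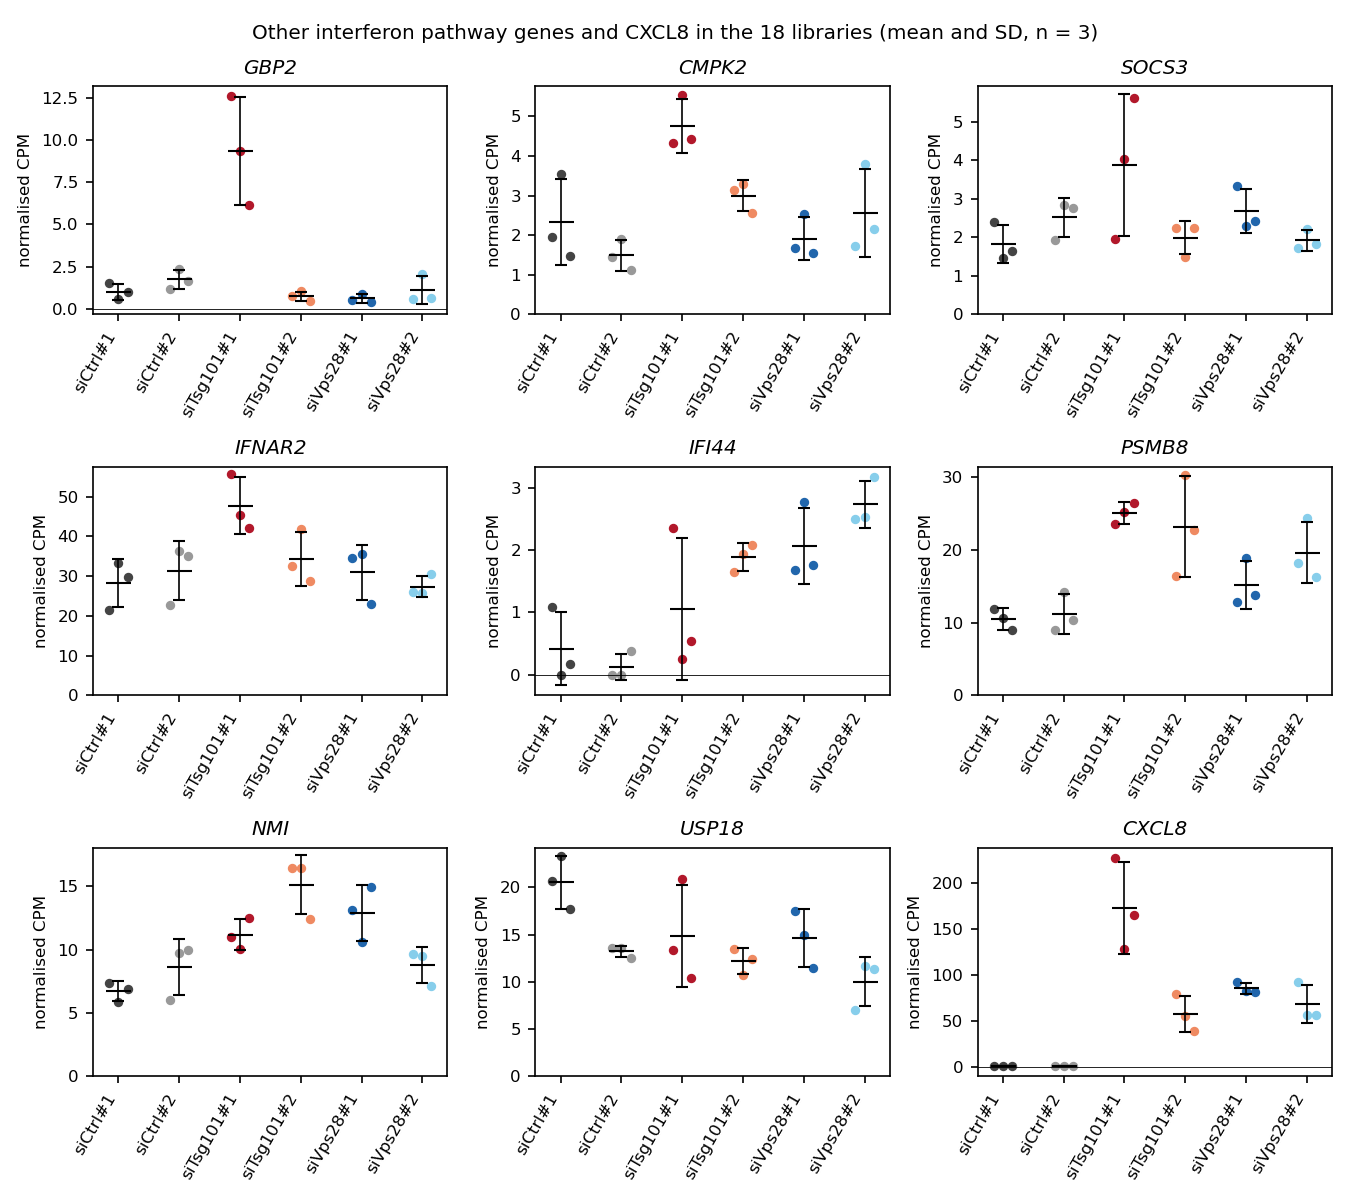
Normalised CPM (y axis, a separate scale per gene) of 8 interferon pathway genes and the NFκB target CXCL8 in each library of the 6 siRNA groups, with points for replicates 1 to 3 from left to right and bars for the mean and SD (n = 3). GBP2 is above all other groups with siTsg101#1 alone (6.16 to 12.6 CPM), PSMB8 and NMI are called up with 3 of the 4 on-target siRNAs, and CXCL8 is at 0.590 to 1.11 CPM in the nontargeting libraries.

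For the mean of the 4 on-target siRNAs, 4 of the 64 tested pathway genes (6.25%) were called up and 2 down. Of all targets, 8.56% were called up and 6.54% down, so the counts are not a result about the lists. The called genes are named after their values were seen. PSMB8, a subunit of the immunoproteasome, rose by 0.96 ± 0.20 (log2, SE, edgeR adjusted p = 0.00135), and was called with every on-target siRNA but siVps28#1. IFNGR2, a chain of the interferon-gamma receptor, rose by 0.84 ± 0.14 (adjusted p = 0.000144, edgeR), and at 0.58 with siVps28#1 it was just under 1.5-fold. NMI, an interferon-induced partner of STAT factors, rose by 0.80 ± 0.20 (adjusted p = 0.00513, edgeR), but was at 0.45 (adjusted p = 0.115) against siCtrl#2. IFI44, an interferon-induced cytoplasmic protein, rose by 1.95 ± 0.62 (adjusted p = 0.0242, edgeR) from 5, 0 and 1 counts with siCtrl#1 and 0, 0 and 2 with siCtrl#2 to 11 to 19 counts with siTsg101#2 and siVps28#2. It had 6, 12 and 8 counts with siVps28#1 (2.22, not called, adjusted p = 0.0516, edgeR), and it would not have passed the minimum without the 51 counts of siVps28#2, since it had 82 counts in the other libraries. With siTsg101#1 IFI44 had 6, 1 and 4 counts and was not called (0.90, adjusted p = 0.467), and without replicate 2 or 3 of siCtrl#1 the call for the mean was lost (1.55 and 1.44), whereas without replicate 1 of siCtrl#1 the mean was 3.76. USP18, which removes ISG15 from proteins, fell by 0.68 (adjusted p = 0.00975, edgeR), but was at -0.05 (adjusted p = 0.894) against siCtrl#2. IFI30, a lysosomal thiol reductase, fell by 0.73 (adjusted p = 0.00512, edgeR) and was at 0.08 (adjusted p = 0.836) against siCtrl#2.

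Further genes of the pathway, also chosen after their values were seen, were under the minimum or differed between the nontargeting siRNAs. CCL5, a chemokine of both interferon and NFκB responses, had 0 counts in all 6 nontargeting libraries and 4, 4 and 26 counts with siTsg101#1, with 0 to 4 counts in the other on-target libraries. RSAD2, an antiviral enzyme, had at most 1 count in a nontargeting library and up to 14 in an on-target library, replicate 2 of siVps28#2. With siCtrl#2 against siCtrl#1, WARS1 (0.85, adjusted p = 0.0166, edgeR) and CD274 (0.65, adjusted p = 0.0264), both targets of interferon-gamma, were called up, as were 1.41% of all targets.

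The genes whose log2 levels followed each member most closely over the 18 libraries are given as a description, by Pearson's r. They were JMJD8 (0.91), SUOX (0.88) and CDK5 (0.86) for ISG15, and SRPRA (0.83), SERINC2 (0.83) and CYSTM1 (0.81) for MX1. For IRF1 they were TNFAIP2 (0.82), HLA-C (0.79) and CDK2AP1 (0.76), and for IRF7 CYP26B1 (0.78), LRATD2 (0.76) and HNRNPH2 (0.74). For the low members they were RPS7 (0.84), PRR13 (0.84) and PTGR1 (0.82) for IFIH1 and MED4 (0.80) and ACTMAP (0.76) for IFIT2. The libraries share batches and depth differences, and these values come from a search over all tested targets.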

How the data were processed

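RNA of 18 libraries of RKO cells was profiled with the Ion AmpliSeq Transcriptome panel on the Ion Proton. Per the study's methods, alignment of reads to the hg19 AmpliSeq targets used the Torrent mapper and counting used HTSeq 0.6.0, and the authors deposited raw counts per target for each library. The notes of the submitters also list DESeq2 1.18.1. Per library 45.4% to 46.7% of reads were counted on targets and 48.2% to 49.1% fell on no feature. Rows that name no target were left out of library sizes and tests.

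Of 20802 targets, 20224 were matched to a symbol and 578 were not. Noncoding targets (419) and targets with at most 100 counts over all libraries were left out, and 10213 were tested with edgeR 4.0.16 (R 4.3.3, TMM, quasi-likelihood) in 1 fit of the 6 groups with siCtrl#1 as reference, as the study did, and called at a fold change of at least 1.5 and a Benjamini-Hochberg adjusted p under 0.05. CPM are normalised by TMM. The correlations used log2 CPM with a prior count of 2, whereas the log2 differences within a batch used CPM with no prior count. The scripts were tested on simulated data. The study names 3 independent experiments, and the labels give each replicate number as a batch, which pairs the libraries. Residuals of the 45 same-numbered pairs of libraries correlated at 0.145 on average (-0.148 to 0.389), and those of differently numbered pairs at -0.073 on average. The main fit had no term for the batch, which was an alternative. No replicate pair agreed within sampling noise. The limits given for IFIT3 in groups with no count cover counting error only, since reads carry no molecular identifiers. Intervals of log2 fold changes come from the edgeR fit over the replicates and are not limited to counting error.

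Alternatives were RLE size factors, DESeq2 1.42.0, no minimum count, 10 counts in every library, the batch as a term, adjusted p alone, siCtrl#2 or both nontargeting siRNAs as reference, and each library left out. The members and lists were chosen with earlier results of these data known. The naming rule took the members, list genes called with all 4 on-target siRNAs, with 1 of them and against the mean of the other 3, or with siCtrl#2, and the 3 nearest genes of each tested member. NFκB genes outside CXCL8 and NFKBIA are given as counts. Promoters were from RefSeq (GRCh38.p14) and gene positions from GENCODE on GRCh37. IFI27, TICAM1 and SOCS1 were not analysed here. Some single genes that the rule or the lists took in are not reported here.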

Additional observations from a re-analysis of the deposited data

Results flagged for a closer look

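The effect of siTsg101#1 on IRF1 differed from that of the other on-target siRNAs by a test of the difference itself. The level of IRF1 with siTsg101#1 was 0.66 ± 0.20 (log2, SE) above the mean of siTsg101#2, siVps28#1 and siVps28#2, with an edgeR adjusted p of 0.0323. All 3 siTsg101#1 libraries (18.9 to 27.1 CPM) lay above the siTsg101#2 libraries (10.5 to 14.6 CPM), and the lowest of them lay within the range of both siVps28 groups (12.3 to 20.1 CPM). The call was lost without replicate 1 (0.58) or replicate 3 (0.57) of siTsg101#1, without replicate 1 of siVps28#1 (0.61) and without replicate 3 of siTsg101#2 (0.62), at edgeR adjusted p-values of 0.151, 0.192, 0.0559 and 0.0561. Over all alternatives the adjusted p ranged from 0.00880 to 0.192. The difference was not particular to IRF1, since 9 of 18 tested NFκB target genes were called up in the same comparison, beside 3.42% of all targets. The cause of the difference was not tested.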

How the results depend on the processing

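Of the counts of called members, the replicate block (the batch as a term) moved those with siTsg101#1 and siTsg101#2 from 1 to 2, by adding IFIT2 (1.26) and IFIH1 (1.10), and changed no other call of a member. With siCtrl#2 as the reference the count with siVps28#1 was 0, and by adjusted p alone the count for the mean of the 4 on-target siRNAs was 1 (ISG15). Leaving out each library in turn gave counts of 0 to 2 with siTsg101#1, 0 to 1 with siTsg101#2, 0 to 1 with siVps28#1, 0 to 1 for the mean of the 4 and 0 to 1 for siTsg101#1 against the other 3. The count was 0 in all alternatives run with siVps28#2, with siCtrl#2, for both siTsg101 against both siVps28 and for siTsg101#2, siVps28#1 and siVps28#2 against the other 3. An unchanged count need not be the same gene, since against siCtrl#2 the member called with both siTsg101 siRNAs was MX1. IFI30 reversed from -0.73 to 0.0791 for the mean of the 4 with siCtrl#2 as the reference. The causes of these moves were not tested. The minimum of 10 counts in every library left IFIT2 and IFIH1 out. Depth limits IFIT1, IFIT3 and OAS1, at no more than 7 counts in a library.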
